A study of Mus musculus with 4 samples.

Results

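The cells described here were CD8 T cells from tumours treated with anti-PD-1 that carried RNA of both Gzmk, which encodes granzyme K, and Ly6c2, which encodes the surface protein Ly6C. They were chosen in the anti-PD-1 library by deposited values above 0 for Cd8a, Cd8b1, Gzmk and Ly6c2, and at 0 for Cd4, Foxp3, Mki67 and Havcr2. The rule took 797 cells of 12562 in that library and 13213 in the series. They made up 15.8% (exact 95% interval 14.8 to 16.8%) of the 5056 non-cycling CD8 cells, defined by Cd8a and Cd8b1 above 0 and Cd4 and Mki67 at 0. The other 4259 non-cycling CD8 cells served as the comparison.

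All mice were C57BL/6 with orthotopically implanted MC38-derived tumours, a mouse colon carcinoma model, and each arm pooled 5 tumours collected 2 weeks after the first treatment into 1 droplet library. Mice of the anti-PD-1 arm received the antibody 3 times per week, 5 times in total. The other arms received the compound ATT-I at 50 mg/kg daily, both agents, or neither, and the last of these is called vehicle in the treatment protocol but untreated in the sample's own entry. With 1 library per arm there were no replicate libraries, so no test was made and all intervals cover counting error only.

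Effector-memory CD8 T cells patrol tissues after antigen encounter and respond quickly on re-encounter, and granzyme K is a protease typical of the memory-like effector pool in tumours. Ly6C is carried by effector and memory CD8 cells of the mouse and its expression can be raised by interferon. Type I interferon acts through a receptor whose signal leads to factors that bind a short promoter element, the interferon-stimulated response element, in front of antiviral genes such as the Ifit family.

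The genes that chose the cells lay at chr13:113171608-113225908 on the minus strand (Gzmk) and chr15:75108158-75111970 on the minus strand (Ly6c2) in GRCm38. Gzma, the gene of granzyme A, lay 70.6 kb from Gzmk on the same chromosome, at chr13:113093825-113100981. The element spelled GAAANNGAAA, searched on both strands in windows of 250 bases before to 50 bases after each RefSeq gene start (GRCm38.p6), was in 4.46% of the 4726 tested genes with a window and in 3.44% of all 32851 windows. It was in 10 of the 14 type I interferon-stimulated genes with a window, or 71.4%, in 7 of the 14 interferon-gamma-induced genes with a window, or 50%, and in 0 of 12 inhibitory receptor and exhaustion genes. Such a match describes letters and is not a measured site. The 160 bases before the start of Ifit3 (chr19:34583369-34583528, plus strand), Ifit1 (chr19:34640729-34640888, plus strand), Gzma (chr13:113100982-113101141, minus strand) and Ly6c2 (chr15:75111972-75112131, minus strand) are shown because the levels of these genes are central to what follows. Capitals mark the element, which is absent from the Ly6c2 stretch.
Ifit3: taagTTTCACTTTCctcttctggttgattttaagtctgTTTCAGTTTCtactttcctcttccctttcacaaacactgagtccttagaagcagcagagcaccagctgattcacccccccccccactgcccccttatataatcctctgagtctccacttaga
Ifit1: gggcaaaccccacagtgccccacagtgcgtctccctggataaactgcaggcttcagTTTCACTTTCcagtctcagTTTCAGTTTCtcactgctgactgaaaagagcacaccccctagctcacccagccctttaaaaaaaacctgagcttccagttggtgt
Gzma: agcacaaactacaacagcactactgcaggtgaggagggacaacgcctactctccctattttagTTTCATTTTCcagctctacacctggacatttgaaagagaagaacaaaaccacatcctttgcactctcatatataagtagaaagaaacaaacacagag
Ly6c2: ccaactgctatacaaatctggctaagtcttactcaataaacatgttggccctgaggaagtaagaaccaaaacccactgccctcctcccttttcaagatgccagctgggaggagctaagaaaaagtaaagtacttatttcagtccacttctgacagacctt

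The values that chose the cells were low for Gzmk and spread widely for Ly6c2. Gzmk had a median of 2 and a maximum of 10 unique molecular identifiers (UMIs, each standing for 1 captured RNA molecule) per member, and 379 of the 797 members held a single Gzmk UMI. Ly6c2 had a median of 5 and a maximum of 63, and 178 members held a single Ly6c2 UMI. Just outside the rule lay 916 cells with Ly6c2 but no Gzmk UMI and 563 cells with Gzmk but no Ly6c2 UMI, all without Havcr2 and Foxp3. The rest of the comparison held 806 cells with neither RNA, 1688 cells with Havcr2, which encodes the inhibitory receptor TIM-3, and 286 cells with Foxp3. A cell with RNA of a gate gene can show none, so the edges of the gate are counting limits as well. Median depth was 5766 UMIs in the Gzmk+ Ly6c2+ cells and 7150 UMIs in the other CD8 cells. Levels below are UMIs of a gene per 10000 UMIs summed over a group of cells, and a ratio is the level in Gzmk+ Ly6c2+ cells over that in the comparison.

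The label was checked against T cell genes and markers of other cell types. The 6 T cell markers outside the rule, among them Cd3e and Trac, summed to 61.0 UMIs per 10000 in Gzmk+ Ly6c2+ cells and 59.1 in the other CD8 cells. The 9 measured monocyte or macrophage markers summed to 0.506 in Gzmk+ Ly6c2+ cells and 0.585 in the other CD8 cells. These are given because Ccr2 and Ly6c2 also mark inflammatory monocytes. Natural killer cell markers summed to 1.97 in Gzmk+ Ly6c2+ cells and 3.81 in the other CD8 cells, mostly through Fcer1g, which had 1.71 in Gzmk+ Ly6c2+ cells and 3.25 in the other CD8 cells. Tumour epithelial markers summed to 0.194 and fibroblast markers to 0.159 in Gzmk+ Ly6c2+ cells, and to 0.185 and 0.149 in the other CD8 cells. Within the tumour epithelial list, Cdh1 had 0.115 in Gzmk+ Ly6c2+ cells and 0.0562 in the other CD8 cells, and Epcam 0.0613 and 0.108. The 5 measured dendritic cell markers summed to 0.343 in Gzmk+ Ly6c2+ cells and 0.550 in the other CD8 cells, mostly through Cd74. Flt3, Xcr1, Cxcr2 and Krt19 had no UMI among the members. They had only 1, 5, 2 and 1 UMIs in the other CD8 cells, so their absence says little. Of the markers named for these cells that the rule did not use, Cxcr3 was 2.27-fold and Ccl5 1.38-fold the level in the other CD8 cells, and Gzma had a log2 ratio of 0.58. The same rule took 11 of 63 non-cycling CD8 cells in ATT-I, 0 of 11 in the combination and 1 of 4 in vehicle. Between libraries, 1 cell barcode was shared, by no member.

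Across 5938 genes found in at least 10% of cells of either group, 108 genes (1.82%) were at least 1.5-fold higher and 103 genes (1.73%) at least 1.5-fold lower in Gzmk+ Ly6c2+ cells than in the other CD8 cells. The median gene had a log2 ratio of -0.01. The higher genes were led by interferon-stimulated genes and by 2 chemokine receptors, Ccr2 and Cxcr3. The lower genes included granzymes C and F, the activation receptor Tnfrsf9, the transcription factors Irf8 and Ikzf2, and inhibitory receptors. Against only the comparison cells without Havcr2 and Foxp3, however, Gzmf had a log2 ratio of 0.54. Gzmc was higher than in the Gzmk+ Ly6c2- cells. Since the rule itself used cells of this contrast, these ratios describe the cells and are not tested. With the comparison cells weighted to the depth of the members, 40 genes were higher and 82 lower, and the part of depth in the higher count was not tested further.

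**Figure D1:**
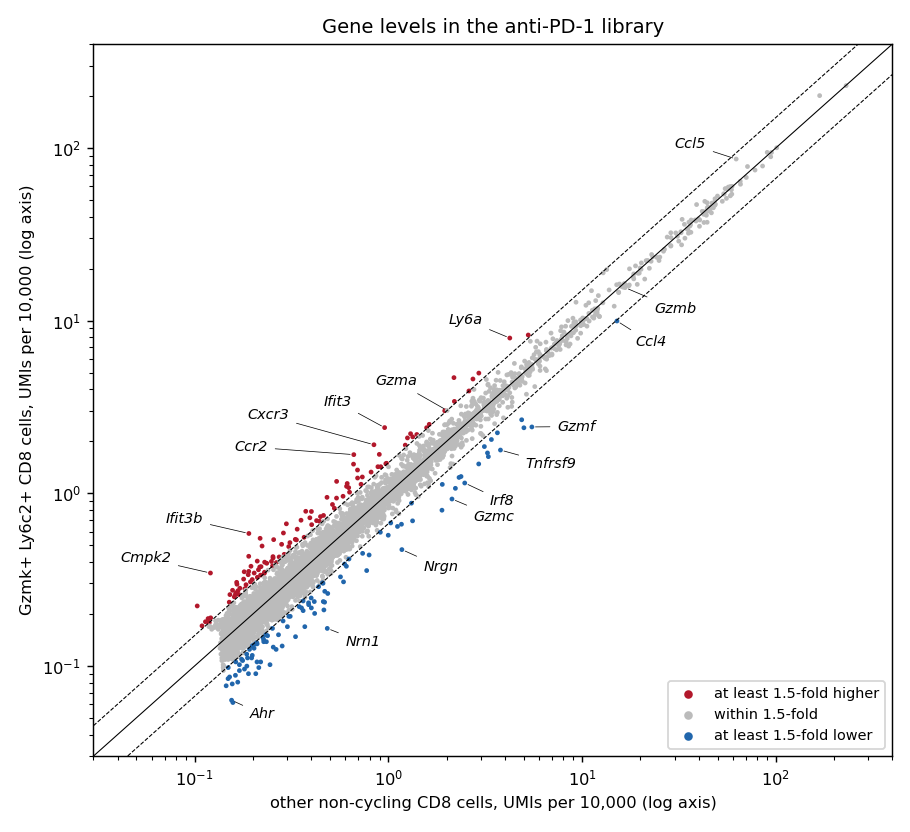
Level of each of 5938 genes in UMIs per 10000 in the Gzmk+ Ly6c2+ cells (vertical, log axis) against the other non-cycling CD8 cells of the anti-PD-1 library (horizontal, log axis), with the solid line at equal levels and the dashed lines at 1.5-fold. Red points mark 108 higher genes, with Ifit3, Cxcr3 and Ccr2 among them, and blue points 103 lower genes, with Gzmf, Tnfrsf9 and Nrn1 among them.

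Type I interferon-stimulated genes had the highest median ratio of the 20 gene lists. The rule asked for Ly6c2 RNA, which interferon can raise, so this direction may be partly fixed by the choice of cells. This list summed to 54.7 UMIs per 10000 in the members and 45.8 in Gzmk- Ly6c2+ cells. It summed to 34.2 in Gzmk+ Ly6c2-, 27.4 in Gzmk- Ly6c2-, 28.3 in Havcr2+ and 40.9 in Foxp3+ cells. Of 20 measured type I interferon-stimulated genes, 17 were at least 1.5-fold higher in Gzmk+ Ly6c2+ cells, against 1.82% of all genes, and 0 were lower. The median log2 ratio was 0.86, against -0.01 over all genes. Ifit3, an antiviral RNA-binding scaffold protein, had 2.40 UMIs per 10000 in Gzmk+ Ly6c2+ cells and 0.956 in the other CD8 cells, a log2 ratio of 1.33 (95% interval 1.23 to 1.42). Ifit1, a sensor of foreign RNA caps, had 1.47 in Gzmk+ Ly6c2+ cells and 0.660 in the other CD8 cells, a log2 ratio of 1.16 (1.04 to 1.28). T cell receptor, immunoglobulin, mitochondrial, ribosomal, haemoglobin and unnamed genes were left out when single genes were ranked. Among the ranked genes, Ifit3b had the highest ratio, at 0.584 UMIs per 10000 in Gzmk+ Ly6c2+ cells and 0.190 in the other CD8 cells. Ifit3b is, however, a near-identical copy of Ifit3, and reads of the pair may have been split. Cmpk2, a nucleotide kinase of the interferon response, had 0.345 in Gzmk+ Ly6c2+ cells and 0.121 in the other CD8 cells. Isg15, a ubiquitin-like protein, and Irf7, a transcription factor that amplifies the response, were picked after their values were seen and had log2 ratios of 1.10 and 0.90. The smallest ratios of the list were 0.54 for Stat2 and 0.51 for Ifi203. With depth matched, 10 of the 20 genes stayed at least 1.5-fold higher and the median log2 ratio was 0.59. Against only the comparison cells without Havcr2 and Foxp3, 12 of 20 were at least 1.5-fold higher, with a median of 0.63.

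Genes that interferon-gamma raises, for antigen presentation and for guanylate-binding proteins, were higher by smaller ratios. All 20 measured genes had a ratio above 1, and 4 were at least 1.5-fold higher, against 1.82% of all genes. The median log2 ratio was 0.37, against -0.01 over all genes. Iigp1, a GTPase that attacks pathogen vacuoles, had 0.431 UMIs per 10000 in Gzmk+ Ly6c2+ cells and 0.190 in the other CD8 cells. Gbp2, a guanylate-binding protein, had 0.786 in Gzmk+ Ly6c2+ cells and 0.374 in the other CD8 cells. The class I genes H2-D1 and B2m had log2 ratios of 0.15 and 0.08. Ly6a, which encodes the surface protein Sca-1 and is also raised by interferon, had 7.92 in Gzmk+ Ly6c2+ cells and 4.23 in the other CD8 cells, and was the only 1 of 20 Ly6 family and surface memory genes at least 1.5-fold higher. Ly6e, of the same family, had a log2 ratio of 0.49.

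**Figure D2:**
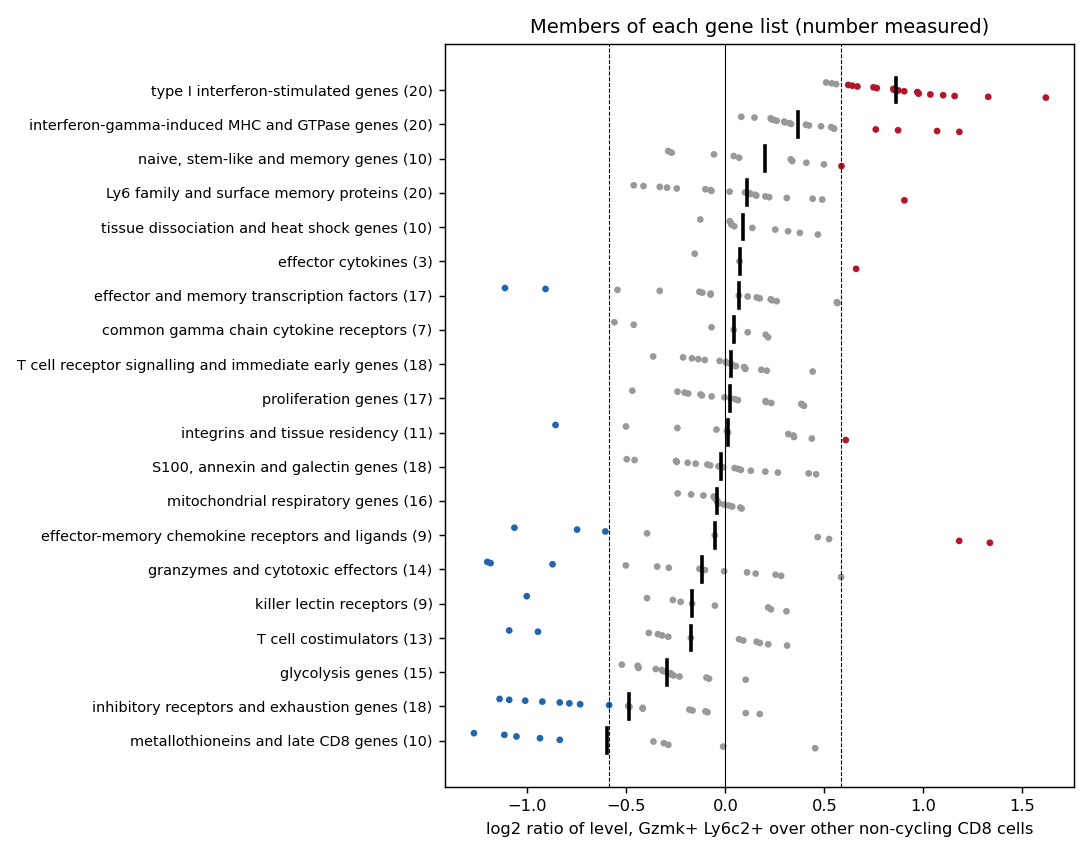
Log2 ratio of level (horizontal), Gzmk+ Ly6c2+ cells over the other non-cycling CD8 cells, for each measured member of 20 gene lists (points, the number measured in brackets), with the list median as a black bar and dashed lines at 1.5-fold. Type I interferon-stimulated genes sit highest with a median of 0.86, and metallothionein and late CD8 genes lowest with a median of -0.60.

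Chemokine genes differed in both directions. Of 9 measured receptor and ligand genes, the receptors Ccr2 and Cxcr3 were at least 1.5-fold higher and the ligands Ccl3, Ccl4 and Xcl1 at least 1.5-fold lower. Against only the comparison cells without Havcr2 and Foxp3, 3 of 10 measured genes were at least 1.5-fold higher and 1 lower. Of the others, Ccl5, Cxcr6 and Cx3cr1 had log2 ratios of 0.47, -0.05 and -0.40. Ccr2, the receptor for CCL2 that guides cells into inflamed tissue, had 1.67 UMIs per 10000 in Gzmk+ Ly6c2+ cells and 0.663 in the other CD8 cells, a log2 ratio of 1.34 (1.22 to 1.45). Cxcr3, the receptor for the interferon-induced chemokines CXCL9 and CXCL10, had 1.91 in Gzmk+ Ly6c2+ cells and 0.842 in the other CD8 cells, a log2 ratio of 1.18 (1.07 to 1.29). The ligand Ccl5, abundant in memory CD8 cells, had 86.2 in Gzmk+ Ly6c2+ cells and 62.4 in the other CD8 cells, but its level was 93.3 in the Gzmk+ Ly6c2- cells among them. Ccl3, a chemokine that activated cells release, had 2.39 in Gzmk+ Ly6c2+ cells and 5.01 in the other CD8 cells. Xcl1, which attracts cross-presenting dendritic cells, had 1.86 in Gzmk+ Ly6c2+ cells and 3.13 in the other CD8 cells. Its level was 5.48 in the Gzmk- Ly6c2+ cells among the latter.

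Shares of cells with a receptor's RNA followed the same order after every cell was thinned to 3000 UMIs, which left out 20 of the 797 members and 102 of the other CD8 cells. Cxcr3 was found in 41.3% of thinned Gzmk+ Ly6c2+ cells and 20.6% of thinned other CD8 cells, and in 58.0% and 33.9% without thinning. Ccr2 was found in 33.3% of thinned Gzmk+ Ly6c2+ cells and 14.9% of thinned other CD8 cells, and in 46.9% and 24.98% without thinning. In CD4 cells of the library, whose median depth was 5053 UMIs, the thinned shares were 32.5% for Cxcr3 and 27.8% for Ccr2. The part of free RNA in these shares was not tested. Eomes, a T-box factor of memory CD8 cells, was found in few CD4 cells, with 14.8% in thinned Gzmk+ Ly6c2+ cells, 10.8% in thinned other CD8 cells and 0.847% in thinned CD4 cells, and with 26.1% in Gzmk+ Ly6c2+ cells and 21.1% in other CD8 cells without thinning.

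Cytotoxic genes did not move together. Of 14 measured genes, 0 were at least 1.5-fold higher and 3 were at least 1.5-fold lower, against 1.82% and 1.73% of all genes. The median log2 ratio was -0.12. Against only the comparison cells without Havcr2 and Foxp3, 2 were at least 1.5-fold higher, 0 lower, and the median was 0.03. Gzma had 3.01 UMIs per 10000 in Gzmk+ Ly6c2+ cells and 2.01 in the other CD8 cells, a log2 ratio of 0.58 (0.50 to 0.66), at the edge of the 1.5-fold limit. Gzmb, the main apoptosis-inducing granzyme, had 15.5 in Gzmk+ Ly6c2+ cells and 16.7 in the other CD8 cells. Prf1, which encodes the pore-forming perforin, had 2.66 in Gzmk+ Ly6c2+ cells and 4.88 in the other CD8 cells, a log2 ratio of -0.87 (-0.95 to -0.79). Gzmc and Gzmf had 0.925 and 2.42 in Gzmk+ Ly6c2+ cells and 2.13 and 5.50 in the other CD8 cells. Against Gzmk+ Ly6c2- cells, with 0.303, Gzmc was instead higher in Gzmk+ Ly6c2+ cells, a log2 ratio of 1.61 (1.32 to 1.92). Gzmc was found in 8.37% of thinned Gzmk+ Ly6c2+ cells and 8.83% of thinned other CD8 cells. The 5% of thinned members with most Gzmc held 80.9% of its UMIs. Its level in the members thus rests on few cells, which the interval does not cover. Granzymes C and F belong to a cluster of similar genes, so their reads may have been split. Of the cytokine genes, Ifng had a log2 ratio of -0.15. Tnf had a log2 ratio of 0.66, on 160 UMIs in Gzmk+ Ly6c2+ cells, but of -0.35 when the rule was applied to thinned cells.

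Genes of inhibitory receptors and exhaustion were lower. Of 18 measured genes, 8 were at least 1.5-fold lower, against 1.73% of all genes, and 0 were at least 1.5-fold higher. The median log2 ratio was -0.49, against -0.01 over all genes. The rule itself asked for no Havcr2 RNA, so this direction is partly fixed by the choice of cells. Pdcd1, which encodes the receptor PD-1 that the treatment blocks, had 2.53 UMIs per 10000 in Gzmk+ Ly6c2+ cells and 3.53 in the other CD8 cells, a log2 ratio of -0.48 (-0.57 to -0.40). Tnfrsf9, the activation-induced costimulator 4-1BB, had 1.78 in Gzmk+ Ly6c2+ cells and 3.79 in the other CD8 cells, a log2 ratio of -1.09 (-1.19 to -0.99). Nrp1, a co-receptor, had 0.211 in Gzmk+ Ly6c2+ cells and 0.464 in the other CD8 cells. Tox, a factor that sustains exhausted cells, had a log2 ratio of -0.42. Lag3, an inhibitory receptor picked after its values were seen, had 2.05 in Gzmk+ Ly6c2+ cells and 3.40 in the other CD8 cells. Against only the comparison cells without Havcr2 and Foxp3, 5 of the 18 genes were at least 1.5-fold lower, with a median of -0.32.

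Metallothioneins and other late CD8 genes gave 5 of 10 genes at least 1.5-fold lower, against 1.73% of all genes, and a median log2 ratio of -0.60. Against only the comparison cells without Havcr2 and Foxp3, 3 of 10 were lower, 1 was higher, and the median was -0.47. The median was -1.18 against Havcr2+ cells, with 8 of 11 lower, and -0.002 against Gzmk- Ly6c2+ cells, with 1 of 8 lower. The part of the Havcr2 rule in this direction was not tested. Mt1, a metal-binding protein, had 0.356 UMIs per 10000 in Gzmk+ Ly6c2+ cells and 0.772 in the other CD8 cells. Of 15 glycolysis genes, 1 had a ratio above 1, namely Hk1, and 0 were at least 1.5-fold lower. Their median was -0.30, against -0.01 over all genes, and the lowest value was -0.52, for Tpi1. The glycolysis median was -0.06 against only the comparison cells without Havcr2 and Foxp3 and -0.19 with depth matched. Nrn1, which encodes the anergy-linked surface protein neuritin, had the lowest log2 ratio of the ranked genes, -1.55 (-1.88 to -1.24). Its level was 0.165 in Gzmk+ Ly6c2+ cells and 0.483 in the other CD8 cells. Irf8, a transcription factor induced by antigen receptor signals, had 1.15 in Gzmk+ Ly6c2+ cells and 2.48 in the other CD8 cells. Spp1, which encodes osteopontin, had 0.797 in Gzmk+ Ly6c2+ cells and 1.89 in the other CD8 cells. Of its 6255 UMIs in the other CD8 cells, 4340 were in the Havcr2+ cells, at a level of 2.90. The rule kept Havcr2+ cells out of the members, and its part in the Spp1 ratio was not tested.

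Memory and stem-like genes differed little. Of 10 measured genes, 1 was at least 1.5-fold higher, against 1.82% of all genes. This gene was Lef1, with 0.343 UMIs per 10000 in Gzmk+ Ly6c2+ cells and 0.228 in the other CD8 cells. Tcf7, a factor of stem-like T cells, had a log2 ratio of 0.50 (0.27 to 0.72), and Il7r, the interleukin-7 receptor, one of 0.04 (-0.11 to 0.19). The median of the memory list was -0.02 with depth matched and -0.19 against only the cells without Havcr2 and Foxp3. The gut-homing integrin gene Itgb7 had a log2 ratio of 0.61, and P2rx7, which encodes a receptor for extracellular ATP, one of 1.11. Antigen receptor signalling genes gave a median of 0.03, proliferation genes 0.03, and dissociation and heat shock genes 0.09, with no gene of these lists past 1.5-fold either way.

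Setting the members against each neighbouring group showed which side of the gate a gene went with. Against the 563 Gzmk+ Ly6c2- cells, 132 of 5736 genes (2.30%) were at least 1.5-fold higher and 121 (2.11%) lower in Gzmk+ Ly6c2+ cells. Interferon-stimulated genes were higher in 16 of 20, with a median log2 ratio of 0.81, exhaustion genes were lower in 9 of 18, with a median of -0.59, and memory genes were higher in 6 of 10. Ms4a4c, a gene of the MS4A membrane protein family, had the highest ratio of the ranked genes. Its level was 1.08 UMIs per 10000 in Gzmk+ Ly6c2+ cells and 0.272 in Gzmk+ Ly6c2- cells. Perp, a p53 target, had 0.0786 in Gzmk+ Ly6c2+ cells and 0.226 in Gzmk+ Ly6c2- cells.

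Against the 916 Gzmk- Ly6c2+ cells the picture was different, and 32 of 5645 genes (0.567%) were at least 1.5-fold higher and 52 (0.921%) lower in Gzmk+ Ly6c2+ cells. Interferon-stimulated genes gave 1 of 20 higher, with a median log2 ratio of 0.24, and exhaustion genes 0 of 17 lower, with a median of 0.02. Memory genes gave 8 of 12 lower, with a median of -0.75. Gzma had the highest ratio of the ranked genes, with 3.01 UMIs per 10000 in Gzmk+ Ly6c2+ cells and 0.651 in Gzmk- Ly6c2+ cells. Its log2 ratio was 2.21 (2.05 to 2.37). The Gzma level was also 2.98 in Havcr2+ cells, 2.12 in Gzmk+ Ly6c2- cells and 1.42 in Gzmk- Ly6c2- cells. Ccr2 followed the cell cycle gene Ccnb2, with 1.67 in Gzmk+ Ly6c2+ cells and 0.788 in Gzmk- Ly6c2+ cells. Dapl1, a gene of naive and memory-like CD8 cells, had 0.102 in Gzmk+ Ly6c2+ cells and 0.524 in Gzmk- Ly6c2+ cells, and Xcl1 had 1.86 in Gzmk+ Ly6c2+ cells and 5.48 in Gzmk- Ly6c2+ cells. The inhibitory Ly49 receptor genes Klra7 and Klra6 had log2 ratios of -2.36 and -2.25, but the family is made of similar copies whose reads may have been split.

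More genes differed from the remaining groups. Against the 806 Gzmk- Ly6c2- cells, 172 of 5762 genes (2.99%) were at least 1.5-fold higher and 147 (2.55%) lower in Gzmk+ Ly6c2+ cells, and 19 of 20 interferon-stimulated genes were higher. Against the 1688 Havcr2+ cells, 225 of 6213 genes (3.62%) were at least 1.5-fold higher and 213 (3.43%) lower. All 20 interferon-stimulated genes were at least 1.5-fold higher, 12 of 19 exhaustion genes and 6 of 15 cytotoxic genes lower, and 6 of 10 memory genes higher. Cxcr3 had 1.91 UMIs per 10000 in Gzmk+ Ly6c2+ cells and 0.445 in Havcr2+ cells, and Tcf7 had 0.399 in Gzmk+ Ly6c2+ cells and 0.0975 in Havcr2+ cells. Prf1 had 2.66 in Gzmk+ Ly6c2+ cells and 7.17 in Havcr2+ cells. Gzmf had 2.42 in Gzmk+ Ly6c2+ cells and 9.32 in Havcr2+ cells, but 1.10 in Gzmk+ Ly6c2- cells and 1.77 in Gzmk- Ly6c2+ cells, and against only the cells without Havcr2 and Foxp3 its log2 ratio was 0.54. Median depth was 6595 UMIs in Gzmk+ Ly6c2- cells, 6122.5 in Gzmk- Ly6c2+ cells, 6388 in Gzmk- Ly6c2- cells and 8145.5 in Havcr2+ cells, and the part of depth in these differences was not tested.

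**Figure D3:**
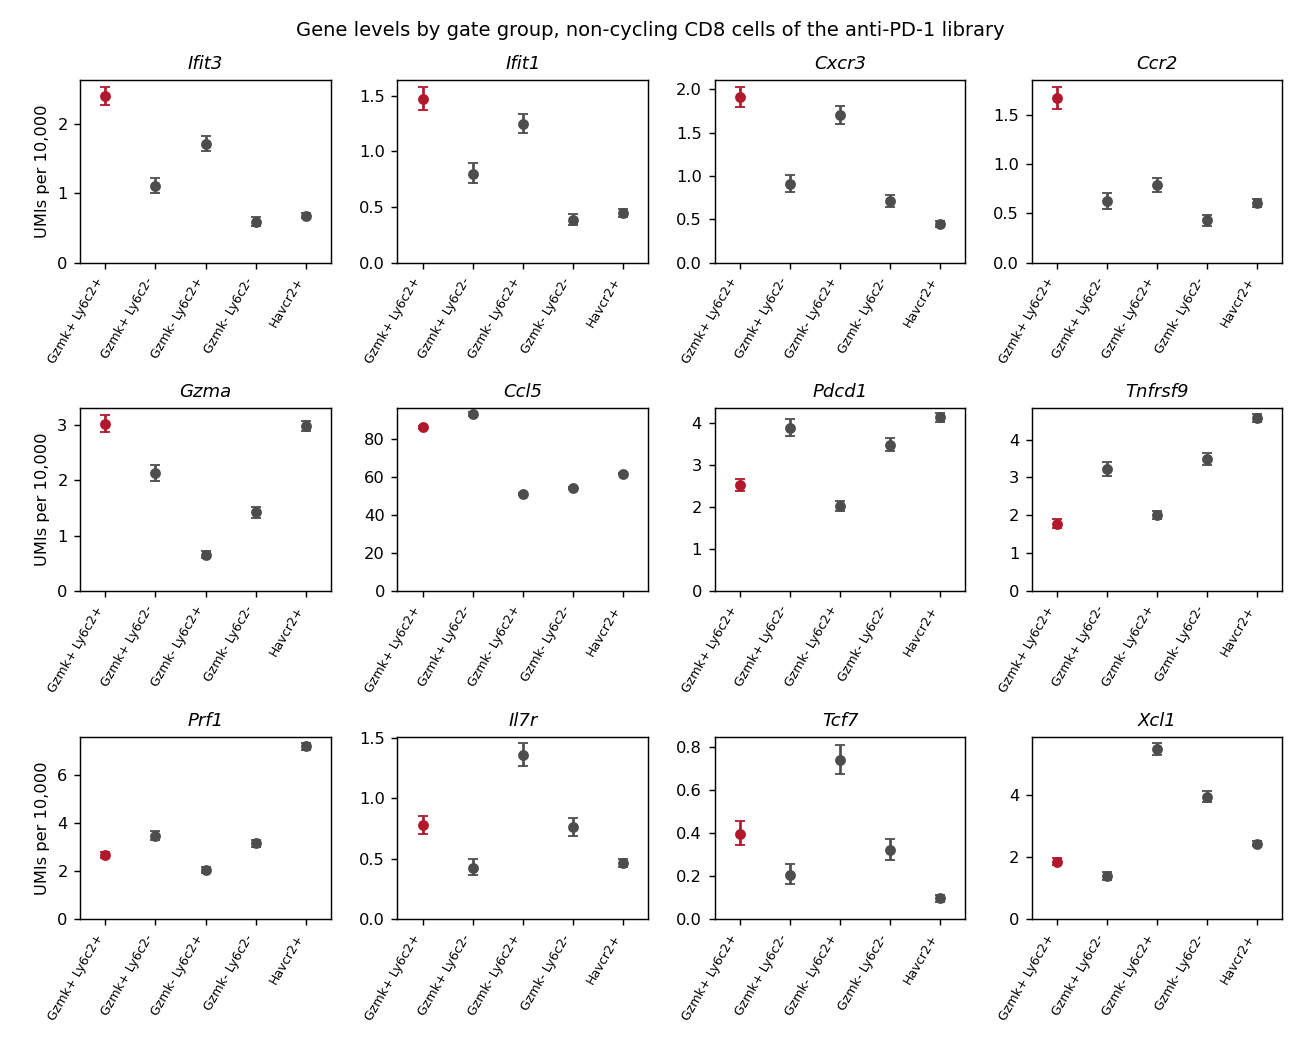
Level of 12 genes in UMIs per 10000 (vertical, from 0) in the Gzmk+ Ly6c2+ cells (red) and the 4 neighbouring groups of non-cycling CD8 cells (grey), with exact Poisson 95% intervals that cover counting error only. Ifit3, Ifit1 and Cxcr3 are highest on the Ly6c2+ side, Gzma is 3.01 in Gzmk+ Ly6c2+ cells, 2.98 in Havcr2+ cells and 0.651 in Gzmk- Ly6c2+ cells, and Tcf7 is highest in Gzmk- Ly6c2+ cells at 0.742.

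Interferon-stimulated RNA varied from cell to cell as well. Summed over the 20 genes and thinned to 3000 UMIs per cell, it had a median of 11 UMIs (quartiles 6 and 25, maximum 109) in 777 Gzmk+ Ly6c2+ cells and 6 UMIs (quartiles 3 and 13, maximum 146) in 4157 other CD8 cells. The median was 6.5 in Gzmk+ Ly6c2- cells, 9 in Gzmk- Ly6c2+ cells, 6 in Gzmk- Ly6c2- cells, 5 in Havcr2+ cells and 8 in Foxp3+ cells. Sums of 8 or more occurred in 63.7% of Gzmk+ Ly6c2+ cells, 44.3% of Gzmk+ Ly6c2- cells, 54.6% of Gzmk- Ly6c2+ cells, 34.8% of Gzmk- Ly6c2- cells, 35.5% of Havcr2+ cells and 52.9% of Foxp3+ cells. The 286 Foxp3+ cells had an Iigp1 level of 0.458 UMIs per 10000 and a Ly6a level of 7.38, near the 0.431 and 7.92 of the Gzmk+ Ly6c2+ cells. The groups overlapped over the whole range, and 53 members had a sum of 0 to 2. Cells with high sums were shallower, with a median depth of 5497 UMIs for members at 8 or more and 7783 UMIs for members at 0 to 2, and the part of depth was not tested.

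**Figure D4:**
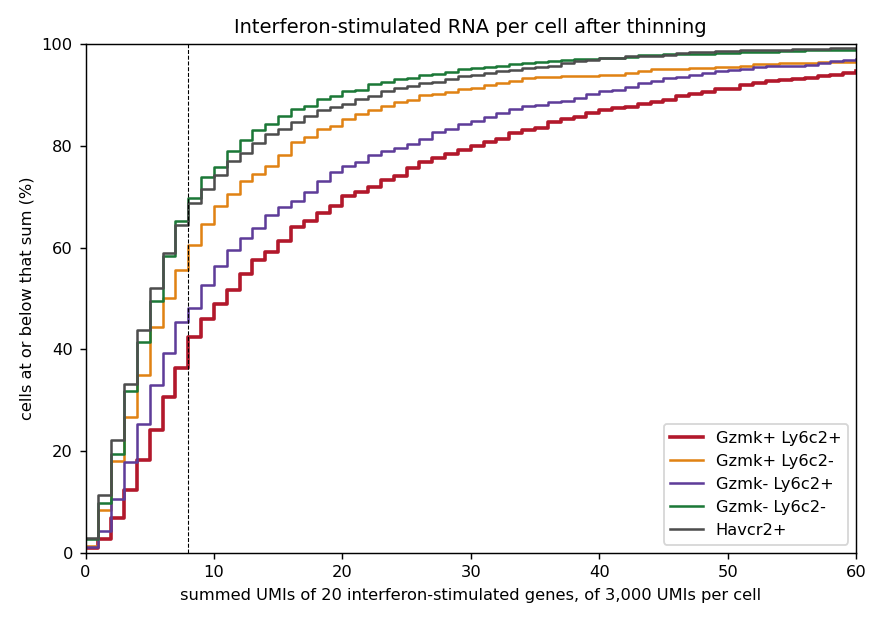
Share of cells (vertical, percent) at or below each summed number of UMIs of 20 type I interferon-stimulated genes (horizontal) after thinning to 3000 UMIs per cell, for the Gzmk+ Ly6c2+ cells (thick red line) and the 4 neighbouring groups. The dashed line marks 8 UMIs, a sum reached by 63.7% of Gzmk+ Ly6c2+ cells and 35.5% of Havcr2+ cells.

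Cells in the same range of interferon sums were then compared, to see which differences appeared within the ranges. The range of 8 or more was open, up to 109 in members and 146 in the other CD8 cells. Sums within it were not matched, and the part of interferon in these differences was not tested. Among cells with sums of 8 or more, Cxcr3 had 2.19 UMIs per 10000 in Gzmk+ Ly6c2+ cells and 1.31 in the other CD8 cells, and among cells with sums of 3 to 7 it had 1.71 in Gzmk+ Ly6c2+ cells and 0.638 in the other CD8 cells. Ccr2 log2 ratios were 1.52 at sums of 0 to 2, 1.66 at 3 to 7 and 0.92 at 8 or more, so the receptor was higher in every range. Pdcd1 and Tnfrsf9 were lower in every range, with log2 ratios of -0.25, -0.40 and -0.46 for Pdcd1 and of -0.37, -0.84 and -1.34 for Tnfrsf9. Gzmf had log2 ratios of 0.07, -1.11 and -1.58, and thus was close to equal among cells with the lowest sums. Gzma was lower in that range, with 0.811 in Gzmk+ Ly6c2+ cells and 2.18 in the other CD8 cells, on 53 members and 40 UMIs.

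The 797 members were also described by their number of Ly6c2 and Gzmk UMIs, which are values of the genes that chose them, so what follows supports nothing about the gate. Members with 1 to 3, 4 to 10 and 11 or more Ly6c2 UMIs numbered 309, 260 and 228. Over these ranges the interferon sum was 38.2, 57.6 and 73.2 UMIs per 10000, Ccr2 was 1.07, 1.70 and 2.44, and Cxcr3 was 1.27, 1.85 and 2.81. Pdcd1 ran the other way at 3.14, 2.71 and 1.53, as did Tnfrsf9 at 2.66, 1.58 and 0.838 and Prf1 at 3.61, 2.36 and 1.75. Tcf7 was 0.233, 0.475 and 0.532. Median depth was 5846, 5480 and 5989 UMIs over the same ranges. Over members with 1, 2 to 3 and 4 or more Gzmk UMIs, which numbered 379, 310 and 108, Gzma was 1.46, 3.24 and 7.37 and the interferon sum 51.6, 55.7 and 62.3. Median depth over these ranges was 5651, 5726.5 and 6198 UMIs, and its part in these differences was not tested. The Gzma values rest on few cells, since the 5% of members with most Gzma held 78.9% of its UMIs. Members with 1 Gzmk UMI had a Gzma level above that of the Gzmk- Ly6c2+ cells, which was 0.651. Their level was near that of the Gzmk- Ly6c2- cells and below those of the Gzmk+ Ly6c2- and Havcr2+ cells.

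**Figure D5:**
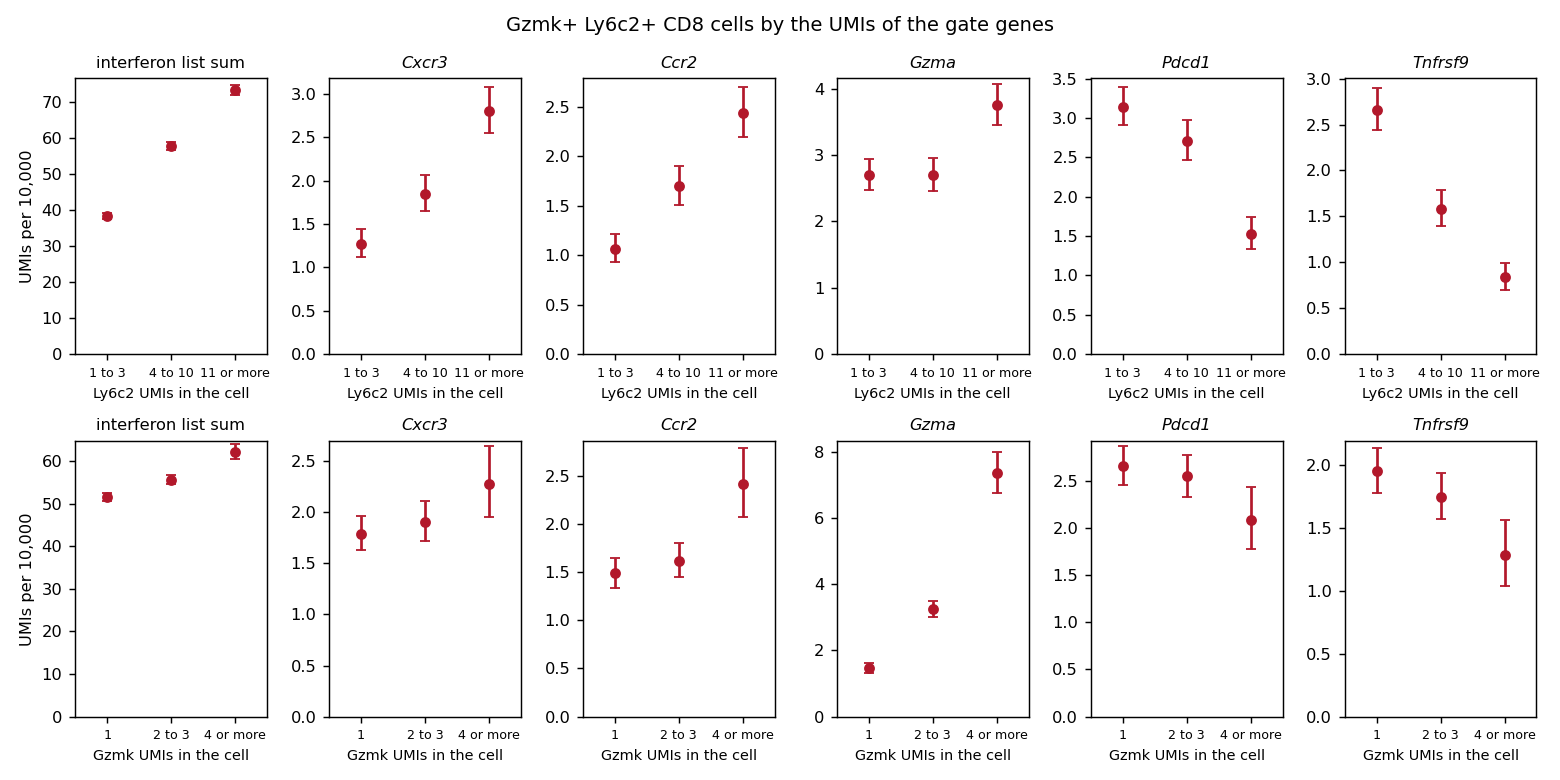
Levels in UMIs per 10000 (vertical, from 0) of the interferon list sum and 5 genes among the 797 Gzmk+ Ly6c2+ cells, by the number of Ly6c2 UMIs in the cell (upper row) and of Gzmk UMIs (lower row), with exact Poisson 95% intervals that cover counting error only. Ccr2 is 1.07, 1.70 and 2.44 over the Ly6c2 ranges, while Gzma is 1.46, 3.24 and 7.37 over the Gzmk ranges.

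Some secreted effector genes were concentrated in few members. The variance over the mean of thinned UMIs, which is near 1 for pure counting and had a median of 1.03 over 5694 genes, was 24.99 for Gzmf, 22.7 for Ccl5, 21.7 for Gzma, 18.2 for Ccl4, 16.1 for Gzmc and 15.3 for Ifng. Other CD8 cells had 34.6 for Gzmf, 21.0 for Ccl5, 29.0 for Gzma, 27.1 for Ccl4, 53.4 for Gzmc and 9.43 for Ifng. Such unevenness was therefore not particular to the members. The 5% of members with most Gzma UMIs held 78.9% of its UMIs, and the corresponding share was 78.8% for Gzmf, 80.9% for Gzmc and 90.8% for Cxcl10, the ligand of CXCR3. For Ccl5 it was 18.1%, and Ccl5 was found in 99.1% of thinned members. Gzma was found in 18.9% of thinned Gzmk+ Ly6c2+ cells, 12.5% of thinned other CD8 cells and 11.02% of thinned CD4 cells, and without thinning in 28.0% of Gzmk+ Ly6c2+ cells and 21.6% of other CD8 cells. Its level in the members therefore came from a minority of cells with up to 58 thinned UMIs each.

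T cell receptor beta variable genes were a readout that the rule did not use. The table holds 12 of these genes, and a leading gene, with more UMIs than any other of them in the cell, was found in 148 of 797 Gzmk+ Ly6c2+ cells (18.6%) and in 931 of 4259 other CD8 cells (21.9%). Trbv2 led in 23.6% (exact 95% interval 17.1 to 31.3%) of such Gzmk+ Ly6c2+ cells and 31.4% (28.4 to 34.5%) of such other CD8 cells. Trbv13-1 led in 18.9% of Gzmk+ Ly6c2+ cells and 15.5% of other CD8 cells, Trbv16 in 12.8% and 14.4%, and Trbv13-2 in 6.76% and 4.51%. Trbv3 led in 10.8% (6.31 to 17.0%) of Gzmk+ Ly6c2+ cells, which was 16 cells, and in 3.76% (2.63 to 5.19%) of other CD8 cells. Its share was 5.38% (2.19 to 10.8%) in Gzmk+ Ly6c2- cells and 7.23% (3.79 to 12.3%) in Gzmk- Ly6c2+ cells. It was 1.15% (0.140 to 4.09%) in Gzmk- Ly6c2- cells and 2.72% (1.36 to 4.81%) in Havcr2+ cells. Cells of 1 clone share a receptor and the 5 tumours were pooled, so these intervals do not carry over to animals.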

How the data were processed

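The deposited values are natural log values made by the authors. Cell Ranger, Seurat and build mm10 are named per the submitters' processing notes, and filters on cells are not given in the sources used here. In the anti-PD-1 library, adding a constant of 0.249 turned 100% of the non-zero deposited natural log values into whole UMIs within 0.02 of a UMI, so levels were summed from recovered UMIs. A value of 1 UMI can be set to 0 by that constant in the deepest cells. Median depth per cell was 7146.5 UMIs in anti-PD-1, 6826 in ATT-I, 23910 in the combination and 16118 in vehicle. Ratios carry exact conditional binomial, levels exact Poisson and shares Clopper-Pearson 95% intervals. A gene counted as higher or lower at 1.5-fold, a log2 ratio of 0.58, among genes found in at least 10% of cells of either group, without the 8 genes of the rule. Named genes were the 12 highest and 12 lowest (leaving out receptor, mitochondrial, ribosomal, haemoglobin and unnamed genes), the markers, the 2 highest and 2 lowest of each of 20 lists, 10 preset genes, the 10 most variable genes and the 5 most used beta variable genes. Genes named against neighbouring groups, the ranges of interferon sums, Ly6c2 and Gzmk and Isg15, Irf7 and Lag3 were chosen after their values were seen. The members and lists were chosen with earlier results of these data known. No doublet caller was used; cells with 2 or more markers of another class and the deepest 5% were left out as an alternative. In simulated data for the comparison with other CD8 cells, 99.1% of 107 genes set 2-fold apart and 0.0174% of 5738 unchanged genes passed 1.5-fold. The simulation held counting error only, without variation between cells in level or depth, so these rates do not carry over to the measured genes. Gene positions are from GENCODE M21, and promoter sequences from RefSeq on GRCm38.p6. Python 3.11.15, numpy 2.4.6, scipy 1.17.1 and matplotlib 3.10.9 were used. Some named genes are not reported here.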

Additional observations from a re-analysis of the deposited data

How the results depend on the processing

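The count of higher genes, 108, became 58 against comparison cells with Havcr2 and Foxp3 at 0, 40 with depth deciles matched, 1041 with no filter on detection and 208 with at least 2 UMIs of Gzmk and Ly6c2 per member. The count of lower genes, 103, became 57, 82, 1199 and 271 under the same settings, 225 with genes found in 5% of cells, and 174 with cells of 8 or more summed interferon UMIs left out, an alternative chosen after seeing the data. Without a filter the added genes are those with few UMIs. The causes of the other shifts were not tested. The share of non-cycling CD8 cells in the gate, 15.8%, became 10.6% after thinning all cells to 3000 UMIs and 6.49% at 2 or more UMIs of both genes, and it was 6.34% of all cells of the library. Of 39 named genes past 1.5-fold, 38 or 39 kept their direction and 30 to 39 stayed past 1.5-fold over the alternatives. Over all genes, 74 of the 108 higher and 39 of the 103 lower genes were shared with the gate set on thinned cells, and 55 and 76 without interferon-high cells. The log2 ratio of Gzmf reversed to 0.54 against cells with Havcr2 and Foxp3 at 0, and that of Tnf to -0.35 with the gate set on thinned cells and to -0.36 without interferon-high cells. No paired analysis was possible because each arm is 1 library. With 5 pooled tumours in 1 library, differences between animals cannot be told apart from differences between cells.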

Other observations

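Of 63 non-cycling CD8 cells in the ATT-I library, 11 met the same rule, and their values are given as a description with no comparison drawn. Gzma had 14.9 UMIs per 10000 (95% interval 12.1 to 18.1), on 97 UMIs, in the 11 cells and 0.181 (0.0783 to 0.357) in the other CD8 cells of that library. These intervals cover counting error only. Since few members held most Gzma UMIs in the anti-PD-1 library, a few of the 11 cells may hold most of the 97 UMIs. Cxcr3 had 3.07 in the 11 cells and 0.748 in the other CD8 cells, Ccr2 1.53 and 0.159, and the interferon list sum 79.3 and 25.6. Prf1 had 0.460 in the 11 cells, on 3 UMIs, and 2.45 in the other CD8 cells. Gzmb had 20.1 in the 11 cells and 3.76 in the other CD8 cells, and Pdcd1 had 2.91 and 1.61. The share of non-cycling CD8 cells that met the rule was 17.5% (exact 95% interval 9.05 to 29.1%) in ATT-I and 15.8% (14.8 to 16.8%) in anti-PD-1, and 12.9% and 10.6% after thinning. It was 0 of 11 cells in the combination, an exact upper limit of 28.5%, and 1 of 4 in vehicle, so shares in these arms could not be set apart at this number of cells.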
